A study of Mus musculus with 2 samples.

Results

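Ghrelin is a peptide hormone made mainly by endocrine cells of the stomach. Scattered islet cells make it too, and the paper describes those of mice as present early in life and not detected in adults. The messenger RNA of ghrelin, from Ghrl, is translated into a precursor that prohormone convertases cut to the mature peptide. Ghrelin O-acyltransferase, encoded by Mboat4, attaches a fatty acid to a serine near the peptide's start, and the acylated form activates the growth hormone secretagogue receptor, encoded by Ghsr. Mrap2 encodes a small membrane protein that binds several G protein-coupled receptors, the ghrelin receptor among them. These 4 genes of 27998 measured were selected by symbol, and their unique molecular identifiers (UMIs, 1 per captured transcript molecule) were followed through every islet cell class of the 2 libraries.

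Islets came from WT mice and from GKO littermates, which lack ghrelin through a homozygous germline deletion of the preproghrelin gene. All mice were C57BL/6N, 8 weeks of age and fed standard chow. Islets of 4 mice were pooled per genotype, dispersed, sorted for viable single cells and sequenced by the 10x Genomics 3′ method, so each genotype is represented by 1 library. No test between genotypes was therefore possible, and every interval given (95%) covers counting error only, not the spread between mice or the chance of which cells were caught.

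The WT library held 158067110 UMIs in 7792 barcodes and the GKO library 103511757 UMIs in 7289 barcodes, where a barcode stands for the contents of 1 droplet. In all, 18 barcode sequences occurred in both libraries. Barcodes were classed by their leading hormone, which had to supply at least 10% of UMIs. In WT this gave 2370 β barcodes (Ins1 and Ins2), 1424 δ barcodes (Sst), 1078 α barcodes (Gcg) and 731 γ barcodes (Ppy), and in GKO it gave 1044, 1030, 1429 and 677 in the same order. Barcodes with under 10% hormone UMIs numbered 2066 in WT and 2978 in GKO and are called nonendocrine. The remaining 123 and 131 had at least 10% in sum but no hormone at that level. The δ class carried its transcription factor Hhex at 210.5 counts per 1000000 UMIs (CPM) in WT and 224.3 CPM in GKO, against 7.76 to 14.7 CPM in the other endocrine classes of both libraries. Ucn3, a β cell marker, stood at 153.3 and 160.0 CPM in β barcodes and at 3.16 CPM or less in α, γ and δ barcodes. Fev, listed as a γ marker, did not set that class apart, with 26.6 CPM in WT δ barcodes and 22.2 CPM in WT γ barcodes.

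Ghrl (ENSMUSG00000064177) lies on the minus strand of mm10 chromosome 6, from 113716119 to 113719880. The bases that encode the mature hormone are shown because the acyltransferase acts on their product. They run over exons 2 and 3 of the 5 exons of the reference transcript and, intron included, span chr6:113719182-113719360. The serine codon that receives the fatty acid is in capitals, and the stretch is read 5′ to 3′ on the coding strand.
Ghrl, mature hormone: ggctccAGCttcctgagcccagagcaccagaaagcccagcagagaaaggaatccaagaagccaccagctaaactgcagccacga
These 84 bases end 332 bases before the end of the 527-base transcript. Which bases the GKO allele lacks is not given in the sources used here, so it cannot be said whether 3′ reads fall inside or outside the deleted stretch, and Ghrl counts in GKO are a check of the label only to that extent. Mboat4 (ENSMUSG00000071113) is on the plus strand of chromosome 8 from 34115030 to 34125182, Ghsr (ENSMUSG00000051136) on the plus strand of chromosome 3 from 27371351 to 27378010, and Mrap2 (ENSMUSG00000042761) on the plus strand of chromosome 9 from 87144306 to 87184045.

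The targeted gene was read first. Ghrl had 43634 UMIs in WT, or 276 CPM, and 280 UMIs in GKO, or 2.71 CPM. The log2 ratio of GKO to WT was -6.67 (-6.85 to -6.50). In both libraries the hormone's messenger RNA was concentrated in very few barcodes. In WT, 6 barcodes with more than 1000 Ghrl UMIs each held 42984 of the WT UMIs, or 98.5%. A single GKO barcode held 276 of the 280 UMIs, or 98.6%.

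The 16-base barcodes of these droplets, each naming 1 droplet, are given in order of their Ghrl UMIs, so that they can be found in the matrices.
WT 1: taacttcgttcagcta
WT 2: tcacggggttaggctt
WT 3: gcccgaacatgcagga
WT 4: gatcgtatctggaagg
WT 5: agatcgtcagctcata
WT 6: tttgttgtccacaagt
GKO 1: gatccctcagagaaag
The GKO barcode differed from the WT ones at 8 to 14 of its 16 bases, and none of the 7 occurred in the other library.

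The WT barcodes had 12415, 8009, 7458, 7397, 6222 and 1483 Ghrl UMIs, which was 40.9%, 40.9%, 32.2%, 16.4%, 24.7% and 8.42% of all UMIs in the droplet. In 5 of the 6, the 4 islet hormones together made up only 0.452% to 0.802% of UMIs. The fourth, with 7397 Ghrl UMIs, also had 4100 Sst UMIs (9.09%) and 1705 Ppy UMIs (3.78%), and its 6683 genes and 45097 UMIs were the most of the 6. It was also the barcode with the δ cell factor Hhex (13 UMIs), with Ghsr (3 UMIs) and with Pdx1 (3 UMIs), all at 0 in the other 5. Whether it held more than 1 cell was not tested. The GKO barcode had 276 Ghrl UMIs among 16296, or 1.69%, below every WT barcode of this kind, and its islet hormones made up 0.650%.

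**Figure D1:**
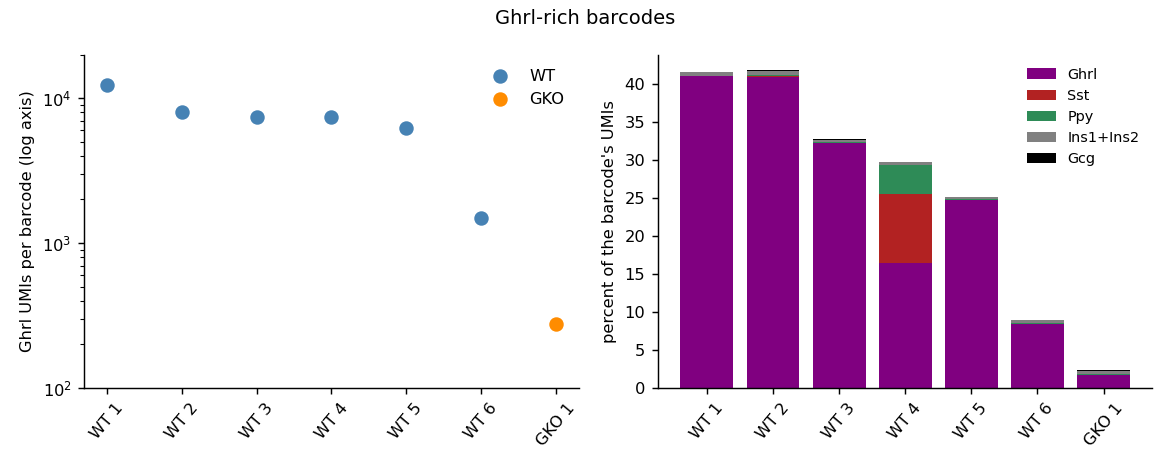
Ghrl UMIs per barcode on a log axis (left, points) and the percent of each barcode's UMIs from Ghrl and the 4 islet hormone groups (right, stacked bars) in the 6 WT barcodes and 1 GKO barcode rich in Ghrl. The WT barcodes lie between 1483 and 12415 UMIs and the GKO barcode at 276, and Sst and Ppy are visible only in WT 4.

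The 12 genes with the largest CPM ratio to all other WT barcodes, were taken to describe what else these droplets contained. They were chosen among 292 genes with at least 50 UMIs in the 6 barcodes and seen in at least 5 of them, so their ratios are a description. Serpina1b and Serpina1a, which encode α1-antitrypsins, led with 410 and 506 UMIs in the 6 barcodes against 104 and 189 in the other 7786, ratios of 3866 and 2625. Serpina1d followed with 67 UMIs and a ratio of 212. These 3 genes are near-identical copies whose reads can be assigned to the wrong copy, so the values of each are uncertain. Acsl1, a long-chain acyl-CoA synthetase of the kind that supplies fatty acyl groups, had 112 UMIs, at least 9 in each barcode, and a ratio of 109 (88.9 to 133). Rbp4, the plasma carrier of retinol, was the most abundant of the 12 with 131 to 469 UMIs per barcode and a ratio of 13.5. It is also a listed δ marker, at 5421 CPM in WT δ and 6265 CPM in GKO δ barcodes, against 12681 CPM in the 6 barcodes. The others were Ceacam10 (417), Cpb2, a plasma carboxypeptidase (89.6), Pcp4, a calmodulin regulator (18.4), Ramp1, a receptor partner of the calcitonin family (17.8), Gc, the vitamin D binding protein (12.3), Bsg (8.10) and Lrpap1 (6.75), with the ratio in parentheses.

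The single GKO barcode was not used to choose these genes. It held UMIs of all 12, with 131 of Serpina1a, 90 of Serpina1b, 472 of Rbp4, 41 of Cpb2, 30 of Ramp1 and 15 of Acsl1. Since Ghrl itself took up to 40.9% of the UMIs in a WT barcode, levels were also computed with Ghrl left out of the total, an alternative added after the data had been seen. On that scale the GKO barcode lay inside the range of the 6 WT barcodes for 9 of the 12 genes, above it for Cpb2 and Gc and just below it for Ceacam10. With Ghrl kept in the total it lay inside the range for 6 of the 12. Of the WT barcodes rich in Ghrl, 5 held all 12 genes and WT 5 held 11. Outside the 7 Ghrl-rich barcodes none held all 12, and the highest number was 9 in WT and 10 in GKO, with medians of 4.00 and 3.00. The genes were chosen for being seen in the WT Ghrl-rich barcodes and for being rarer in other WT barcodes. The WT counts given here, and those of Acsl1 below, follow in part from that choice and are a description. Serpina1a and Serpina1b also occurred without Ghrl, since 6 other GKO barcodes and 3 other WT barcodes had at least 10 UMIs of the pair, at most 59 and 28, and at most 1 Ghrl UMI each. In those barcodes Acsl1 had 0 or 1 UMI, where the 7 Ghrl-rich barcodes had 9 to 30.

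**Figure D2:**
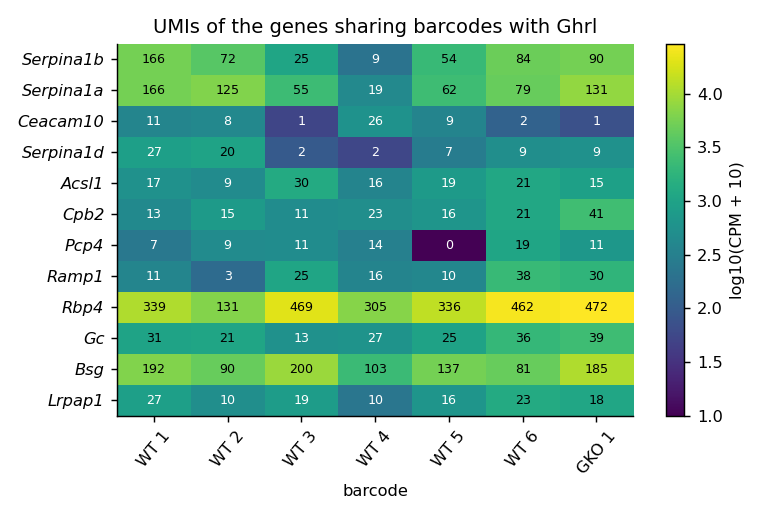
UMIs (numbers) and log10(CPM + 10) (colour) of the 12 genes sharing barcodes with Ghrl, in the 6 WT barcodes and the GKO barcode. Rbp4 is high in all 7 barcodes, the GKO barcode has UMIs of all 12 genes, and Pcp4 is at 0 in WT 5.

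Of 9 matched genes of the ghrelin cell list, 7 had UMIs in the WT barcodes and Prg4 and Nts were at 0. Serpina1c had 18 UMIs (ratio 201, 114 to 336). It belongs to the same family as Serpina1a, Serpina1b and Serpina1d, so its reads can be wrongly assigned in the same way. Etv1 was at 0.50 times its level elsewhere. The GKO barcode had 8 Serpina1c UMIs and was at 0 for Mboat4, Anpep, Prg4 and Nts. A list of 9 genes of islet endocrine cells, drawn up after the data had been seen, was mixed. In the 6 WT barcodes together 3 of the 9 stood above their level elsewhere, 3 below it (0.0896 to 0.821 times) and 3 had an interval that included 1. These ratios, and that of Etv1, keep Ghrl in the total, which lowers the ratio of every other gene. They were not computed without Ghrl, so it is uncertain whether genes not far below 1 were lower. Among those above were Chga, a secretory granule gene with 124 to 380 UMIs per WT barcode and 288 in the GKO barcode, and Isl1, a transcription factor with 11 to 20 and 9. Of the 9 genes, 3 had UMIs in all 6 WT barcodes, and 2 were at 0 in the GKO barcode. Among the 6 WT barcodes, only WT 4, the one with Sst and Ppy, had UMIs of Pax6 (6), Pdx1 (3) and Nkx6-1 (1). It also held 12 of 15 UMIs of Neurod1 and 70 of 147 of Chgb, so the ratios over the 6 barcodes rest in part on it. Slc2a2 and Ucn3 of the β cell list had no UMI in the 6 WT barcodes.

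Genes of gut cells were read in the same barcodes. Of 8 genes of other gut endocrine cells, Cck, Sct, Gip, Nts, Tac1 and Tph1 were at 0 in the 6 WT barcodes, Gast had 1 UMI, and Pyy, also an islet gene, had 3 to 9 UMIs outside WT 4, which had 1172. Fabp1, Fabp2, Apoa4, Alpi, Cdx1 and Cdx2 of the intestinal lining were at 0 in all 7 barcodes, and Rbp2 had 2 UMIs, both in WT 4. In the whole WT library, 108 barcodes had at least 3 of the 5 genes Fabp1, Fabp2, Apoa4, Alpi and Rbp2, and no GKO barcode had. The organ from which the Ghrl-rich droplets came was not tested, and these counts cannot decide it. No list of stomach lining genes was read. Genes of the intestinal lining do not mark endocrine cells of the gut. Cdx1 and Cdx2 had only 15 and 30 UMIs in all other WT barcodes, so a count of 0 in so few droplets carries little information. The intestinal list was drawn up after the data had been seen.

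Outside the Ghrl-rich barcodes, WT held 650 Ghrl UMIs in 605 barcodes, at most 3 in any, and GKO held 4 in 4 barcodes. The level was 4.12 CPM against 0.0386 CPM (log2 ratio -6.73, -8.61 to -5.37). In WT every class had some, at 3.46 CPM (2.62 to 4.47) in δ, 5.22 (4.12 to 6.53) in α, 3.83 (3.44 to 4.26) in β, 4.37 (3.44 to 5.47) in γ and 5.09 (4.09 to 6.25) in nonendocrine barcodes. The α and β intervals overlap only from 4.12 to 4.26 CPM, and those of nonendocrine and β barcodes only from 4.09 to 4.26 CPM. Ratios of Ghrl between classes were not computed, so equal levels are not shown. Vascular and immune cells should lack the hormone, yet endothelial-marker barcodes had 22 UMIs (4.91 CPM) and macrophage-marker barcodes 14 (6.91 CPM). Barcodes with fewer than 500 genes had 6 UMIs, or 8.83 CPM. The share of barcodes with a Ghrl UMI was 13.3% in β (median depth 36220 UMIs), 9.71% in γ, 6.77% in α, 4.12% in nonendocrine (6679 UMIs) and 3.93% in δ barcodes (11045 UMIs). After every barcode was thinned to 5000 UMIs, with shallower ones left out, the shares were 1.94%, 1.93%, 2.08%, 2.91% and 1.64% in the same order. A share at the level of endothelial and macrophage barcodes is treated as background here, not as expression. The WT background amounted to 1.51% of the Ghrl UMIs in the 6 rich barcodes. In GKO, δ barcodes had no Ghrl UMI against 58 in WT. That was 12.9-fold lower with GKO set at a floor of 3 counts in the class sum (upper limit of the log2 ratio -3.35). The nonendocrine barcodes other than GKO 1 had none either against 90 in WT, 37.6-fold lower at the same floor (upper limit -4.90).

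Mboat4, the acyltransferase, was close to the limit of detection, with 19 UMIs in 18 WT barcodes (0.120 CPM, 0.0724 to 0.188) and 15 UMIs in 14 GKO barcodes (0.145 CPM, 0.0811 to 0.239). The log2 ratio of 0.27 had an interval of -0.81 to 1.32, so a difference was not detectable at this depth. Of the 19 WT UMIs, 4 lay in the Ghrl-rich barcodes, with 1 in WT 1, 2 in WT 3 and 1 in WT 4. That was 24.8 CPM against 0.0950 CPM in all other WT barcodes, a ratio of 261 (63.2 to 821). The GKO barcode had none among 16296 UMIs, where a floor of 3 counts would be 184 CPM. By class, Mboat4 had 2 to 5 UMIs in each endocrine class of WT and 2 to 6 in GKO, and none in nonendocrine barcodes once Ghrl-rich ones were left out. The class levels of 0.0557 to 0.316 CPM have intervals that overlap.

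**Figure D3:**
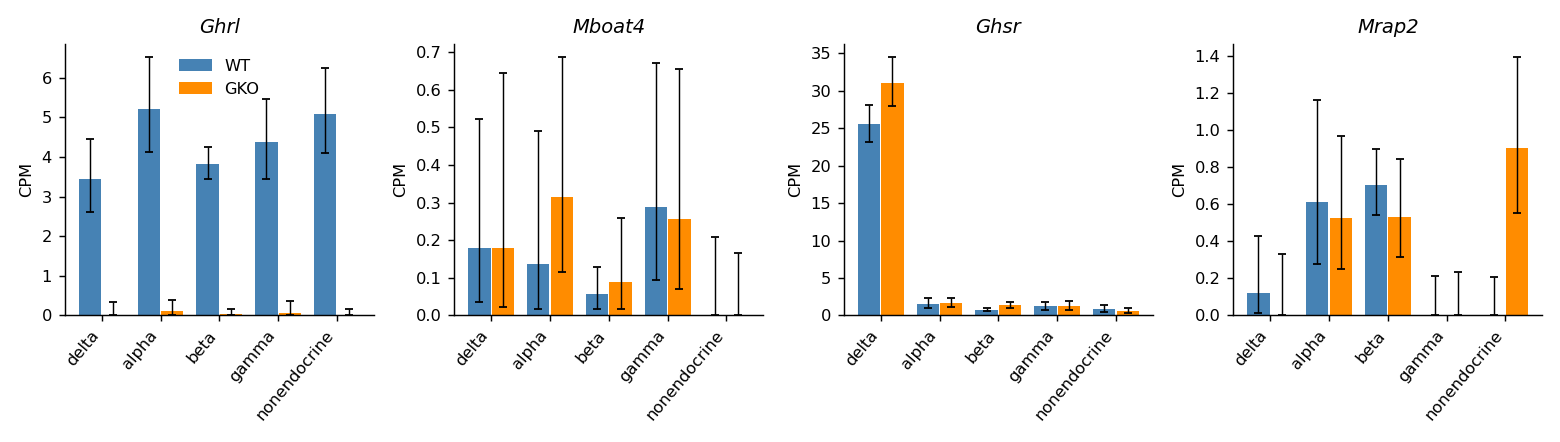
CPM of Ghrl, Mboat4, Ghsr and Mrap2 in the 5 classes of each library with the Ghrl-rich barcodes left out; bars are class sums and whiskers 95% Poisson intervals (counting error only), and the vertical scales differ between genes. Ghsr is highest in δ barcodes of both libraries, and Ghrl is near 0 throughout GKO.

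Ghsr, the receptor, had 587 UMIs in WT and 503 in GKO. δ barcodes held 429 of the WT UMIs, or 73.1% (69.3 to 76.6), and 349 of the GKO UMIs, or 69.4% (65.2 to 73.4). In WT δ barcodes the level was 25.6 CPM (23.2 to 28.1), and in those of GKO it was 31.1 CPM (27.9 to 34.5). In α barcodes it was 1.56 and 1.68 CPM, in β barcodes 0.746 and 1.36, in γ barcodes 1.21 and 1.28, and in nonendocrine barcodes 0.842 and 0.586. δ barcodes therefore stood 16.4-fold (10.8 to 26.1) above α barcodes in WT and 18.5-fold (12.8 to 27.4) in GKO, and 34.2-fold (26.4 to 45.0) and 22.9-fold (16.8 to 31.8) above β barcodes. Among the lower 4 classes of WT, intervals of neighbours overlapped in the order α, γ, nonendocrine, β. In GKO they overlapped in the order α, β, γ, nonendocrine. The intervals at the ends of each order did not overlap. In WT these were 0.989 to 2.34 CPM in α and 0.578 to 0.948 CPM in β barcodes. In GKO they were 1.15 to 2.38 CPM in α and 0.312 to 1.002 CPM in nonendocrine barcodes.

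Ghsr was a low-count gene even in δ barcodes. A UMI was seen in 335 of 1424 WT δ barcodes (23.5%, 21.3 to 25.8) and in 276 of 1030 GKO δ barcodes (26.8%, 24.1 to 29.6), at median depths of 11045 and 10142 UMIs. In nonendocrine barcodes the shares were 0.629% and 0.336% at 6683 and 6765 UMIs. At 5000 UMIs per barcode the δ shares were 10.8% (9.26 to 12.6) in WT and 11.2% (9.29 to 13.3) in GKO, after 22 and 18 shallower δ barcodes had been left out.

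The Ghsr UMIs of the other endocrine classes lay in barcodes that also carried somatostatin. Barcodes with Sst at 1% of UMIs or more, a limit set after the data had been seen, made up 25.9% of WT and 20.2% of GKO barcodes. They held 579 of 587 Ghsr UMIs in WT (98.6%, 97.3 to 99.4) and 501 of 503 in GKO (99.6%, 98.6 to 99.95). Below that limit, 989 α, 2074 β and 670 γ barcodes of WT had 0, 0 and 2 Ghsr UMIs, and 1326, 927 and 611 of GKO had 1, 0 and 1. Together these barcodes stood at 0.0191 CPM in WT and 0.0339 CPM in GKO. Above the limit, 89 α barcodes of WT stood at 11.6 CPM (7.38 to 17.5), 296 β barcodes at 5.04 (3.91 to 6.40) and 61 γ barcodes at 9.76 (5.88 to 15.2). The GKO values were 13.1 CPM (8.87 to 18.5) in 103 α barcodes, 9.24 (6.77 to 12.3) in 117 β barcodes and 9.01 (5.43 to 14.1) in 66 γ barcodes.

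The receptor was also set against somatostatin itself, and the intervals of the ratio in the α, β and γ classes overlapped that of δ barcodes. WT δ barcodes had 1.38 Ghsr UMIs per 10000 Sst UMIs (1.25 to 1.52), and the barcodes above the limit had 1.71 (1.09 to 2.57) in α, 1.35 (1.05 to 1.72) in β and 2.08 (1.25 to 3.24) in γ. In GKO the ratios were 1.68 (1.51 to 1.87) in δ, 1.90 (1.29 to 2.69) in α, 2.23 (1.64 to 2.98) in β and 1.88 (1.13 to 2.94) in γ. Barcodes with no leading hormone but at least 1% Sst stood above δ barcodes, at 3.51 (2.38 to 4.98) in WT and 3.97 (2.87 to 5.35) in GKO. So did the nonendocrine ones in GKO, at 6.29 (3.35 to 10.8), while those of WT, at 2.65 (1.27 to 4.88), overlapped δ barcodes. Sst is both the divisor here and a value that set the classes. δ barcodes needed at least 10% Sst, and these 2 groups had less. Their median Sst shares were 8.04% and 4.24% in WT and 8.19% and 3.42% in GKO, against 18.2% in δ barcodes of both. Differences in this ratio between the classes can follow in part from that choice. Hhex stood at 11.4 UMIs per 10000 Sst UMIs in WT δ barcodes and 13.3 to 14.9 in the other endocrine classes above the limit. The GKO values were 12.1 and 13.8 to 17.0. In WT the lower limits in α (12.2) and β (13.8) lay above the upper limit in δ (11.8), while the γ interval overlapped δ. In GKO those of β (15.3) and γ (13.7) lay above that of δ (12.6), while the α interval overlapped δ. Sst is the divisor here too, so the same caution applies. Whether barcodes of the other classes above the limit hold more than 1 cell was not tested. By Sst share, Ghsr in WT was 0.0655 CPM under 1%, 4.90 from 1% to 5%, 13.2 from 5% to 10%, 27.5 from 10% to 20% and 21.1 at 20% and over. The GKO series was 0.0247, 11.2, 16.6, 32.3 and 26.2 CPM. The level did not go on increasing within the δ range, where the 2 highest bins had overlapping or touching intervals in WT (24.5 to 30.7 and 17.7 to 25.1) and in GKO (28.3 to 36.6 and 21.4 to 31.6). δ barcodes with Ppy at 1% or more did not stand apart, with 24.6 CPM against 27.4 CPM below that limit in WT and 31.1 CPM on both sides in GKO.

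**Figure D4:**
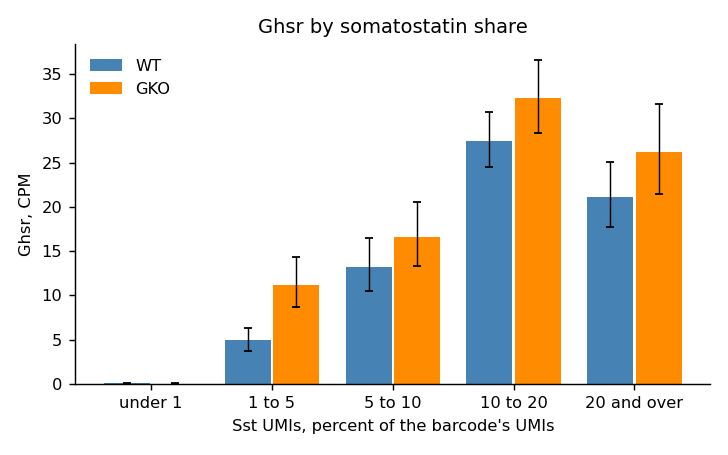
Ghsr CPM (vertical axis) in barcodes grouped by the percent of their UMIs from Sst (horizontal axis), for WT and GKO; bars are sums over barcodes and whiskers 95% Poisson intervals. Ghsr is 0.0655 and 0.0247 CPM under 1% and highest from 10% to 20%, at 27.5 and 32.3 CPM.

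Between the genotypes, Ghsr in δ barcodes had a log2 ratio of GKO to WT of 0.28 (0.08 to 0.49), and after thinning it was 0.08. In α barcodes the ratio was 0.11 (-0.71 to 0.95), in γ barcodes 0.08 (-0.88 to 1.04) and in nonendocrine barcodes -0.52 (-1.72 to 0.65). β barcodes gave 0.87 (0.29 to 1.43), and all of their Ghsr UMIs, 67 in WT and 46 in GKO, lay in the 296 and 117 barcodes with at least 1% Sst, which were 12.5% and 11.2% of the β class. With 1 library per genotype these ratios cannot be told apart from differences between the libraries.

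Genes whose levels followed Ghsr over the 10 sums (5 classes in 2 libraries) were led by Bmp3, Cacna2d2 and Dscam. Pearson's r was 0.998, 0.998 and 0.997 for log2(CPM + 1) among 8209 genes. Hormone genes were left out of this ranking, and a gene needed at least 20 CPM in 1 of the sums. Bmp3, a secreted factor of the TGF-β family, was at 62.8 CPM in WT δ barcodes and 73.1 CPM in GKO δ barcodes and at most 4.21 CPM elsewhere. Cacna2d2, a calcium channel subunit, was at 54.4 and 59.4 CPM and at most 3.68 CPM elsewhere. These values rest on the δ class standing apart in each library, and the sums share libraries. For Ghrl outside the rich barcodes the closest genes were Dpm3 (0.813), Gm10076 (0.677) and Rpl41 (0.656). In δ barcodes these stood at 177 and 114 CPM, 626 and 401 CPM, and 2439 and 1643 CPM in WT and GKO. Outside the rich barcodes WT held 650 Ghrl UMIs and GKO 4, a level treated as background above. The r values for Ghrl therefore rest mainly on the 2 libraries standing apart and are not read as shared expression.

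Mrap2, the accessory protein, had 75 UMIs in WT and 48 in GKO, and its classes were not those of the receptor. In WT, β barcodes held 63 of the 75 UMIs at 0.702 CPM (0.539 to 0.898) and α barcodes 9 at 0.611 CPM (0.279 to 1.16). δ barcodes had 2 UMIs (0.119 CPM, 0.0144 to 0.430), and γ and nonendocrine barcodes had none. δ stood below β in WT at 0.170 of its level (0.0201 to 0.639). In GKO, β barcodes had 18 UMIs (0.532 CPM, 0.315 to 0.841), α barcodes 10 (0.526 CPM, 0.252 to 0.968) and δ and γ barcodes none. The log2 ratio of GKO to WT was -0.40 (-1.24 to 0.38) in β and -0.21 (-1.67 to 1.26) in α barcodes, neither detectably different at this depth. A count of 0 in 1030 GKO δ barcodes allows a share with a UMI of up to 0.358%. Mrap2 was seen in 2.41% of WT β barcodes and 1.63% of GKO β barcodes, against 0 of 2066 WT nonendocrine barcodes, which allows up to 0.178%, but β barcodes were deeper (a median of 36220 against 6683 UMIs in WT). At 5000 UMIs per barcode the WT β share was 0.346% (0.149 to 0.680). The nonendocrine share was 0 of 1313 (0 to 0.281%), and the intervals overlapped. In class sums scaled to all UMIs, WT β barcodes stood above nonendocrine ones, with a lower limit of 3.29-fold. The GKO ratio of β to nonendocrine barcodes was 0.591 (0.295 to 1.18). In each library 1 barcode had UMIs of the receptor and its accessory together, where 460 and 392 barcodes had Ghsr and 69 and 32 had Mrap2. Of the barcodes with Ghsr, 363 and 305 had a single UMI of it, so few shared barcodes could be seen at this depth.

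Nonendocrine GKO barcodes had 20 Mrap2 UMIs (0.901 CPM, 0.550 to 1.39) where WT had none. That was 5.35-fold higher with WT set at a floor of 3 counts (lower limit of the log2 ratio 1.99). Of the 20, 10 and 7 lay in 2 barcodes, with 124 and 102 CPM. These droplets carried genes of autonomic neurons, with 522 and 692 UMIs of the neuropeptide gene Vip, 172 and 192 of Prph, a neuronal filament, 46 and 41 of Phox2a, a transcription factor, and 39 and 59 of Slc18a3, the vesicular acetylcholine transporter. In GKO 3 barcodes had at least 4 of 6 such genes and in WT none had. Without these 3 barcodes GKO had 2 nonendocrine Mrap2 UMIs, so the difference between the libraries rests on them. The neuronal genes were chosen after the data had been seen.

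The pathway around these genes was described with a list of 41, read in class sums with at least 20 UMIs in the libraries together and set apart where the log2 ratio of GKO to WT was at least 0.5 in size. In δ barcodes 28 could be read, of which 2 were higher and 1 lower in GKO, against 6.12% higher and 5.33% lower of all 13246 genes. The median of the list was 0.07 and of all genes 0.03. In α barcodes 1 of 30 was higher and 1 lower, beside 6.37% and 5.88% of all genes. In β barcodes 2 of 29 were higher and 1 lower (8.30% and 5.68% of all genes), and in γ barcodes 2 of 29 and 1 (7.33% and 4.17%). In nonendocrine barcodes 5 of 35 were higher and 6 lower, beside 13.8% and 10.9%. The higher ones there were Gnai1, Drd1, Mrap, Prokr1 and Adrb1 and the lower ones Pcsk1, Pcsk2, Itpr3, Leap2, Insr and Hcar1. In the endocrine classes these are counts of 1 or 2 genes. The nonendocrine class differed between the libraries in its mix of types. Activated stellate-marker barcodes numbered 212 in WT and 537 in GKO, quiescent stellate-marker ones 212 and 478, and endothelial-marker ones 540 and 431. Ductal-marker barcodes numbered 114 and 122, and acinar-marker ones 257 and 235. The part of this mix in the nonendocrine ratios given here and below was not tested.

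Among the genes that make the hormone, Pcsk1, the convertase that cuts the ghrelin precursor, was at 51.2 CPM in WT δ barcodes and 38.8 in GKO (log2 ratio -0.40, -0.57 to -0.23). In the WT Ghrl-rich barcodes Pcsk1 had 37 UMIs, 3 to 9 per barcode, or 230 CPM and 2.13 times its level elsewhere (1.50 to 2.94). β barcodes stood at 172 CPM in WT and 193 CPM in GKO, and α, γ and nonendocrine barcodes at 25.8 CPM or less. The Ghrl-rich GKO barcode had 12 UMIs of Pcsk1. Pcsk2, the other convertase, had 4 to 12 UMIs per barcode outside WT 4, which had 76. In δ barcodes Pcsk2 was at 2524 and 2325 CPM, Cpe, which trims the cut ends, at 1051 and 1040 CPM, Furin at 24.2 and 21.3 CPM and Lypla1, which can remove the acyl group, at 22.3 and 24.8 CPM. Bche, an esterase with the same action, was the one lower gene in δ barcodes with 23 and 10 UMIs (-0.62, -1.86 to 0.51).

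Leap2, the circulating antagonist of the receptor, had 28 UMIs in 23 WT barcodes and none in GKO. That was 6.11-fold lower with GKO set at a floor of 3 counts. Of the 28, 25 lay in the 108 WT barcodes with intestinal genes, and no δ, α or β barcode had any.

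The receptor signals through Gq and related proteins. In δ barcodes Gnaq was at 102 and 99.5 CPM, Gna11 at 114 and 125 CPM, Gnai2 at 481 and 505 CPM, Gnai1 at 17.2 and 21.6 CPM, Gnai3 at 50.0 and 56.2 CPM and Gnao1 at 140.4 and 146.5 CPM. The phospholipases Plcb1, Plcb3 and Plcb4 were at 36.3 and 39.3, 2.92 and 3.30, and 80.7 and 89.4 CPM. Of the calcium release channels, Itpr1 was at 250.3 and 262 CPM, Itpr3 at 21.7 and 22.9 CPM and Itpr2 at 2.68 and 2.67 CPM. Plcb2 had too few UMIs in δ barcodes to be read. The other 14 genes of the group had log2 ratios between -0.30 (Arrb2) and 0.33 (Gnai1). Arrb1 was at 3.10 and 3.74 CPM. In γ barcodes Arrb2, a receptor adaptor, was at 12.1 and 8.12 CPM (-0.57, -0.90 to -0.25). The cation channel gene Trpm2 was at 0.834 and 0.713 CPM in δ barcodes.

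Receptors known to pair with the ghrelin receptor were almost unseen in endocrine barcodes. Drd2, Htr2c and Mc3r had no UMI in any of the 5 classes, and Sstr5 had at most 1 per class and library. Drd1 had 26 WT and 68 GKO UMIs in nonendocrine barcodes (1.07, 0.40 to 1.78). Mc4r, a partner of the Mrap2 protein, was at 5.92 and 4.92 CPM in γ barcodes and at 1.83 and 3.26 CPM in α barcodes (0.83, 0.16 to 1.54). Mrap, the other family member, had 84 and 187 UMIs in nonendocrine barcodes and 2 and 4 in δ barcodes, and Prokr1 had 4 and 20 in nonendocrine barcodes and none in δ barcodes.

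Receptors reported on ghrelin cells were followed in the islet classes as well. Ffar2, a receptor for short-chain fatty acids, showed the largest log2 ratio of the readable list in δ barcodes, where WT had 23.7 CPM and GKO 46.5 CPM (0.97, 0.78 to 1.16). It was also higher in GKO in β barcodes (16.8 and 25.8 CPM, log2 ratio 0.62) and in γ barcodes (14.4 and 21.6 CPM, 0.58). Below the limit of 0.5, Ffar2 was at 18.9 and 24.1 CPM in α barcodes (0.35, 0.13 to 0.57). Nonendocrine barcodes had 4.88 and 4.69 CPM of Ffar2 (-0.06, -0.48 to 0.37). The other gene above the limit in δ barcodes, Gnat3, had 13 and 15 UMIs (0.79, -0.38 to 1.98). In δ barcodes Ffar4 was at 61.8 and 73.1 CPM, Insr at 31.6 and 29.3, Casr, the calcium-sensing receptor, at 13.3 and 16.1 and Sstr2 at 1.19 and 1.16 CPM. In α barcodes Sstr2 was at 12.3 and 16.2 CPM (0.39, 0.12 to 0.66). Gnat3 had 19 and 13 UMIs in α barcodes (-0.91, -2.05 to 0.18), and Hcar1 28 and 6 in β barcodes (-0.81, -2.38 to 0.49). Adrb1, the receptor through which noradrenaline triggers ghrelin release, had at least 1 UMI in each of the 6 WT Ghrl-rich barcodes, 7 in all or 26.9 times its level elsewhere (10.7 to 56.3), and none in the GKO barcode. Among the endocrine classes Adrb1 was highest in α barcodes, at 9.50 CPM in WT and 11.6 CPM in GKO, against 43.5 CPM in the WT Ghrl-rich barcodes. Adrb1 was at 1.49 and 3.20 CPM in γ barcodes, 0.178 and 0.562 in β barcodes and 4.21 and 13.9 in nonendocrine barcodes (1.73, 1.36 to 2.11). Macrophage-marker barcodes numbered 175 in WT and 421 in GKO, and their part in the nonendocrine difference was not tested.

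**Figure D5:**
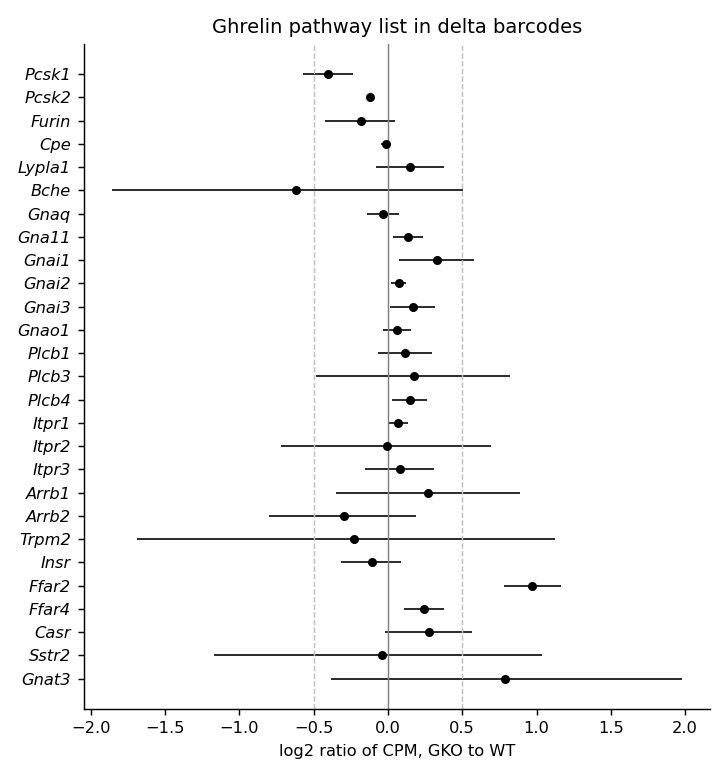
Log2 ratio of CPM, GKO to WT (horizontal axis), of pathway genes readable in δ barcodes, with 95% intervals for counting error; dashed lines mark 0.5 in each direction. Ffar2 lies at 0.97 with its interval beyond the line, and Gnat3 and Bche lie past a line with intervals that cross 0.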

How the data were processed

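The deposited values are UMI counts per gene and barcode, made by the authors with Cell Ranger 5.0.1 (matrix header) on barcodes called as cells; mm10 is named in the submitters' processing notes. No per-barcode filter was added, and doublets were not removed; 186 WT and 99 GKO barcodes had at least 10% UMIs of more than 1 hormone. Counts were summed per class and library and scaled to CPM. Levels have exact Poisson intervals, ratios exact conditional binomial intervals, and shares Clopper-Pearson intervals (95%). For folds, a count of 0 is read against a floor of 3 counts. Such a fold leaves out the counting error of the other sum and is not a limit of an interval. Where 1 sum was 0, 0.5 was added to both for the counts over all genes only. Nonendocrine types needed 3 genes of 1 of 8 marker lists. The members and lists were chosen with earlier results of these data known. Genes named are the 4 members, the 12 genes sharing barcodes with Ghrl, the 3 most alike, and list genes with at least 20 UMIs in δ sums or among the 3 largest ratios of an endocrine class; other list genes and markers were named after their values were seen. Some listed genes are counted but not reported here by name. Gene positions came from GENCODE vM21. The intervals were tested on simulated data. Sums and intervals were computed in scipy 1.17.1 under Python 3.11.15, and TMM factors in edgeR 4.0.16.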

Additional observations from a re-analysis of the deposited data

Results flagged for a closer look

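Barcodes with at least 10% hormone UMIs in sum but no leading hormone were outside the class comparisons. They carried Ghsr at 20.4 CPM (13.9 to 28.8, 32 UMIs in 123 barcodes) in WT and at 26.3 CPM (19.1 to 35.5, 43 UMIs in 131 barcodes) in GKO, above the nonendocrine levels of 0.842 and 0.586 CPM. Of these barcodes 85 in WT and 97 in GKO had at least 1% Sst UMIs and held 31 and 43 of the Ghsr UMIs.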

How the results depend on the processing

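Of 101 alternative values of the ratios and of the numbers of Ghrl-rich barcodes, 84 stayed within the interval of the reported value, 17 moved outside it and none changed the sign of a ratio whose interval excluded 0. The log2 ratio of Ghrl over all barcodes was -6.98 without hormone genes in the total, -6.96 with TMM scaling, -6.43 thinned to 5000 UMIs and -0.61 without the WT barcodes above 1000 Ghrl UMIs, which leaves the GKO barcode in. Limits of 100 and 10 Ghrl UMIs gave 6 barcodes in WT and 1 in GKO, where the limit of 1000 gave 0 in GKO. Thinning to 5000 UMIs gave Ghsr ratios of 0.075 in δ, -0.995 in α and -2.83 in nonendocrine barcodes, and a Mrap2 ratio of -1.72 in β barcodes. After thinning, Ghsr was left in 6 WT and 4 GKO α barcodes and in 4 and 1 nonendocrine ones. Mrap2 was left in 8 and 1 β barcodes, so the α, nonendocrine and Mrap2 values rest on few UMIs. A hormone share of 25% gave a Ghsr ratio of 2.00 in γ barcodes. The log2 ratio of Ghsr in δ to α barcodes was 5.12 in WT with the nonendocrine level subtracted. In GKO it was 4.80 with that level subtracted, 5.56 at a hormone share of 25%, 4.90 with equal weight of barcodes, 5.46 after thinning and 9.01 without α barcodes of at least 1% Sst, an alternative added after the data had been seen that rests on 1 UMI. TMM moved log2 ratios by -0.29 over all barcodes, by -0.12 in β barcodes and by less than 0.1 in the other classes. Counts over the pathway list, of 1 to 6 genes, moved by over 1.5 times under 27 of 40 alternatives, and all 16 shares of barcodes with a UMI moved on thinning. Ratios with 3 or fewer UMIs in both sums or 0 in either, TMM within a library, and subtraction in sums that hold the nonendocrine barcodes gave no value. No paired analysis was possible because each genotype has 1 library. Depth limits Mboat4 and Mrap2 most, with 15 to 75 UMIs per library.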
